A study of Homo sapiens with 27 samples.

Results

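The 10 genes described here encode heterogeneous nuclear ribonucleoproteins (hnRNPs): HNRNPA1, HNRNPA2B1, HNRNPC, HNRNPD, HNRNPDL, HNRNPF, HNRNPH1, HNRNPK, HNRNPL and HNRNPU. They were named by gene symbol, with earlier results of these data known and no threshold on their values, from the 20268 genes listed in the poly(A) site count tables, and all 10 were found in all 4 tables. hnRNPs coat nascent pre-mRNA in the nucleus and influence its splicing, 3′ end processing, export and decay. Cleavage and polyadenylation specificity factor (CPSF) recognises the poly(A) signal, an AAUAAA hexamer or a close variant, just upstream of the site where a transcript is cut and receives its poly(A) tail, and CPSF1 is the largest protein of that complex. When cleavage does not take place at the annotated end, the polymerase runs on and a transcript can be cleaved at a site further downstream.

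The study used PAC-seq (Poly(A)-ClickSeq), which sequences across the point where the poly(A) tail was added, so that each read marks 1 transcript end. Libraries came from 3 established human prostate cancer cell lines: the hormone-sensitive LNCaP, its hormone-insensitive derivative LNCaP95, which was kept in phenol red-free medium, and the hormone-insensitive 22Rv1. In each line there were 3 libraries of cells carrying a control shRNA (CTRL sh), 3 carrying the first shRNA against CPSF1 (CPSF1 sh1) and 3 carrying the second (CPSF1 sh2), which gives 27 libraries. All cells, controls included, had been infected with lentivirus, selected with puromycin and expanded as infected pools rather than clones. Cells of all 3 lines were then plated and grown for 72 h with 10% serum before total RNA was taken. The labels do not say whether replicates were separate infections or cultures, so p-values measure the spread between these libraries, which may be technical.

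Reads ending in a gene's 3′ UTR, in its introns, in its coding sequence (CDS) and in the 10 kb downstream of the annotated 3′ UTR were counted in separate tables. Each library held between 3452410 and 12425400 reads over the 4 tables, of which between 170330 and 728430 lay in the 10 kb downstream regions. The 10 hnRNP genes together took between 0.232% and 0.453% of the reads. CPSF1 itself fell after knockdown in the 3′ UTR table, with log2 fold changes of -1.19 in LNCaP (adjusted p = 8.31e-05), -1.05 in LNCaP95 (0.000301) and -0.73 in 22Rv1 (0.0164, edgeR quasi-likelihood test with Benjamini-Hochberg adjustment over all genes tested). All 7 luminal prostate markers checked were above 1 CPM in every line, with summed levels from control to knockdown libraries of 2515 to 2934 and 1993 to 2191 CPM in LNCaP, 5244 to 5402 and 2538 to 3516 CPM in LNCaP95, and 1009 to 1097 and 934 to 1016 CPM in 22Rv1, so that the sum was lower after knockdown in LNCaP and LNCaP95, and its part in the hnRNP results was not tested. Of 3 basal and 3 fibroblast markers, 0 to 2 and 1 to 2 were above 1 CPM, with sums of 0.869 to 5.45 CPM and 2.61 to 26.3 CPM, the highest fibroblast sums being those of LNCaP95 controls. The blood marker PTPRC was at 1.10 CPM or lower in every library. For these markers CPM, the counts per 1000000 reads, refers to the reads of all 4 tables together, without TMM scaling. Everywhere else it refers to the reads of 1 region's table after TMM scaling, so that CPM in one region cannot be set against CPM in another.

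The poly(A) signals at the annotated ends of the hnRNP transcripts are shown because the comparisons below turn on whether a transcript ended there or further downstream. In the last 40 bases of the canonical transcript, HNRNPA1, HNRNPA2B1, HNRNPD, HNRNPH1 and HNRNPL hold AATAAA, HNRNPC, HNRNPDL and HNRNPU hold ATTAAA but not AATAAA, and HNRNPF and HNRNPK hold neither. Among 17558 canonical ends of protein-coding genes, 64.3% hold AATAAA, 14.3% ATTAAA without AATAAA and 21.4% neither. Each line gives 30 bases of the transcribed strand, 5′ to 3′, from the GRCh37 (hg19) genome, with the signal in capitals.
HNRNPA1: gtttttttttttAATAAActgtatttaact
HNRNPA2B1: ttggctgtccccAATAAAatgctgttcatt
HNRNPC: aatcatctctacATTAAAatacctgataaa
HNRNPD: tgtaaatctctcAATAAAaaattattttta
HNRNPDL: aagatgaggactATTAAAatgagatgtctg
HNRNPH1: tgaaacttgtcaAATAAAtcctccttttaa
HNRNPL: aattgtttggaaAATAAAcacagcacttgc
HNRNPU: tgtaaaataagcATTAAAagtactttgtcc
These windows lie at chr12:54680840-54680869 on the plus strand for HNRNPA1 and, on the minus strand, at chr7:26229557-26229586 for HNRNPA2B1, chr14:21677313-21677342 for HNRNPC, chr4:83273656-83273685 for HNRNPD, chr4:83343728-83343757 for HNRNPDL, chr5:179041187-179041216 for HNRNPH1, chr19:39327023-39327052 for HNRNPL and chr1:245013605-245013634 for HNRNPU. For HNRNPU the canonical end lies 569 bases inside the interval that was counted as 10 kb downstream, so reads from that annotated end fell into the downstream table. Annotated transcripts of the same gene reach into the interval for HNRNPA2B1 (7 transcripts) and HNRNPU (11).

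In control cells the hnRNP genes differed widely in where their transcripts ended. HNRNPA1, which binds pre-mRNA and represses the use of splice sites, ended almost wholly in its 3′ UTR, with 96.5% ± 0.716 of its reads there in LNCaP controls (SD, n = 3). HNRNPF, a G-run binding splicing regulator, and HNRNPK, whose KH domains bind C-rich RNA, had 86.1% ± 3.44 and 85.2% ± 4.40 there in the same libraries. HNRNPU, the scaffold attachment factor that binds both chromatin and RNA, had only 24.9% ± 4.0 of its reads in the 3′ UTR and 64.6% ± 5.14 in the CDS. HNRNPDL, a close paralog of the mRNA decay factor HNRNPD, had 50.3% ± 8.10 in the 3′ UTR and 47.5% ± 7.52 in the CDS.

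Reverse transcription from poly(A) tails can also start on A-rich stretches inside a transcript. For HNRNPU and HNRNPDL, which had the highest CDS shares in LNCaP controls, the 20-base CDS window richest in A is therefore shown, with every A in capitals.
HNRNPU: AAAgAAAAgcAAtAAAAAtA
HNRNPDL: AtAcAAAAAcAAAtgAAAgA
The first holds 15 A at chr1:245019293-245019312 and the second 14 A at chr4:83348673-83348692, both on the minus strand, and 34.4% of all CDSs hold a window of 20 bases with at least 13 A. For HNRNPD, HNRNPH1, HNRNPC, HNRNPK and HNRNPL the tables also overlap, since bases that are coding in one transcript and 3′ UTR in another were counted in both, which touches 52.7%, 83.0%, 42.5%, 29.9% and 45.0% of their coding bases. Reads on such shared bases enter the totals and shares of these genes more than once. How much either property adds to the CDS reads was not tested.

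**Figure D1:**
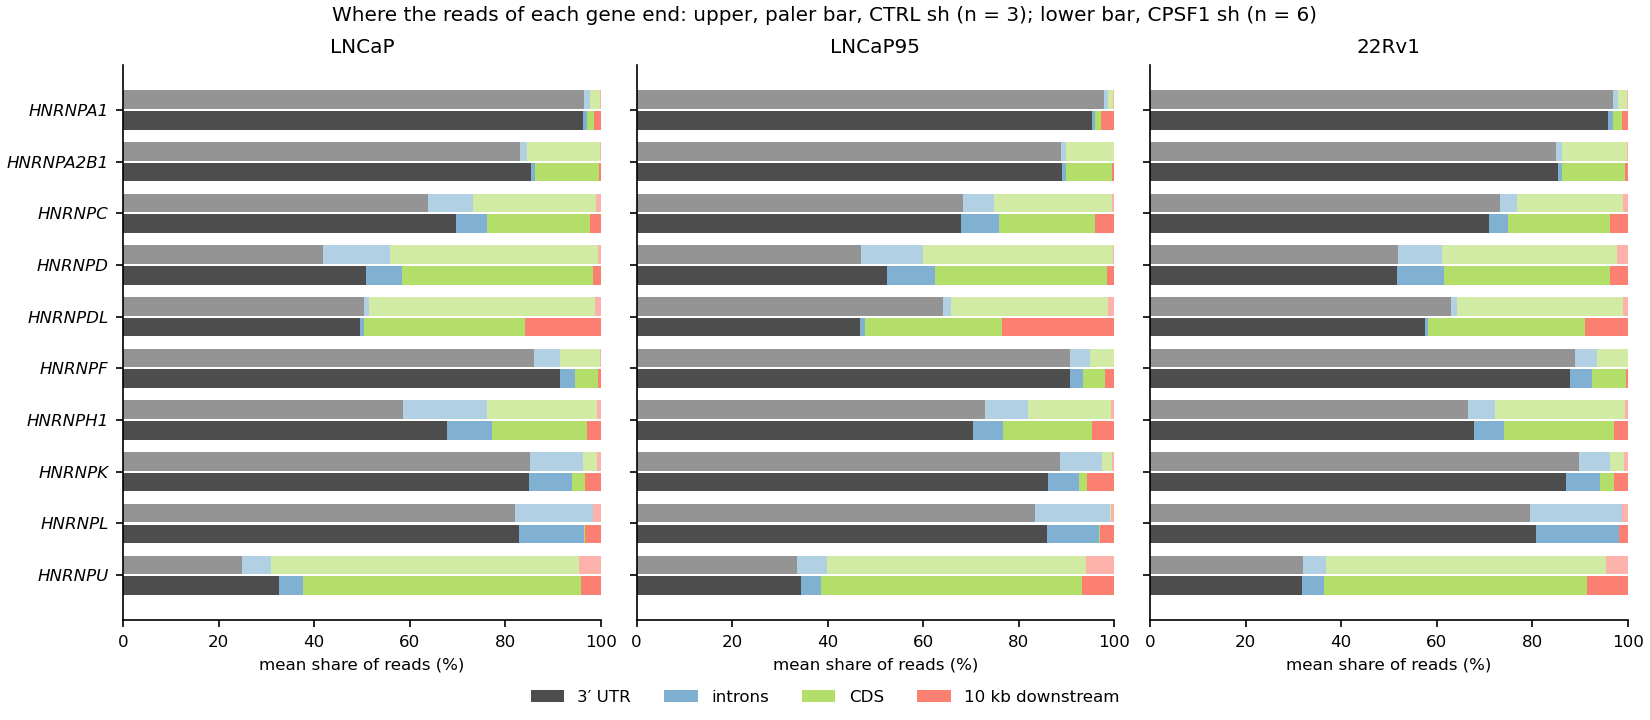
Share of each hnRNP gene's PAC-seq reads (x axis, percent) in the 3′ UTR, introns, CDS and 10 kb downstream, as means for each line, with control libraries in the upper pale bar (n = 3) and CPSF1 knockdown libraries in the lower bar (n = 6). HNRNPA1 lies almost wholly in the 3′ UTR and HNRNPU mostly in the CDS, and the 10 kb segment of HNRNPDL goes from 1.15% to 15.9% in LNCaP, from 1.37% to 23.4% in LNCaP95 and from 1.04% to 8.91% in 22Rv1.

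To ask how CPSF1 knockdown altered the ends of hnRNP transcripts, the 3 control libraries of each line were compared with its 6 knockdown libraries in each region. Reads rose 10 kb downstream for most of the hnRNP genes in every line. In LNCaP 6 of 10 rose and HNRNPU fell, in LNCaP95 8 rose, and in 22Rv1 6 rose. Of all genes tested there, 9.52% were called higher in LNCaP and 5.20% lower. The shares were 17.6% higher with 10.1% lower for LNCaP95 and 7.26% higher with 2.73% lower for 22Rv1. The median log2 fold change of the 10 hnRNP genes was 1.44, 2.20 and 1.29 in LNCaP, LNCaP95 and 22Rv1, against 0.13, 0.22 and 0.19 over all genes. HNRNPA1, HNRNPDL, HNRNPH1 and HNRNPK were called higher in all 3 lines. The share of all genes called higher in all 3 lines was not counted. DESeq2 on the same counts called 4 higher and 1 lower in LNCaP, 8 higher in LNCaP95 and 5 higher in 22Rv1. The 7 LNCaP calls became 4 without control 2, control 3 or sh2 replicate 1.

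The size of these changes depended on how the libraries were scaled, because the 10 kb regions as a whole took a larger share of reads after knockdown. That share went from 4.88% to 6.28% of all reads in LNCaP, from 3.62% to 6.01% in LNCaP95 and from 4.66% to 5.87% in 22Rv1. With libraries scaled by the reads of all 4 tables instead of those of the 10 kb table alone, the median over all genes shifted to 0.62, 1.11 and 0.73. With that scaling 9, 10 and 9 hnRNP genes were called higher and none lower, and calls over all genes split into 2325 higher against 141 lower for LNCaP, 5264 against 240 for LNCaP95, and 2701 against 57 for 22Rv1. The values below use each table's own scaling and are therefore relative to the typical downstream region.

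HNRNPDL had the greatest rise of the 10 genes in LNCaP and 22Rv1. Its downstream region, chr4:83333418-83343417 on the minus strand, holds no other annotated gene on that strand. In LNCaP it had 21.1, 5.12 and 11.3 CPM in controls, 164, 212 and 140 CPM with sh1, and 317, 229 and 292 CPM with sh2. In LNCaP95 the values were 3.63, 38.2 and 10.9 CPM in controls, 129, 577 and 162 CPM with sh1, and 289, 354 and 415 CPM with sh2. In 22Rv1 they were 17.7, 28.0 and 18.6 CPM in controls, 106, 123 and 72.8 CPM with sh1, and 193, 228 and 261 CPM with sh2. Every knockdown library lay above every control of its line. The log2 fold changes were 4.19 ± 0.37 (SE, adjusted p = 2.63e-20), 4.24 ± 0.45 (3.43e-13) and 2.94 ± 0.39 (8.25e-10).

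The HNRNPDL controls rested on few reads, between 1 and 9 a library, so counting error limits the fold. Summed over libraries and divided by the total reads of the table after TMM scaling, the ratio of knockdown to control was 18.8 in LNCaP (95% exact interval 10.9 to 35.4), 19.8 in LNCaP95 (11.5 to 37.3) and 7.93 in 22Rv1 (4.77 to 14.3), intervals that cover counting error only. As a share of all HNRNPDL reads, the library with the highest value, the second sh1 replicate of LNCaP95, had 276 of 856 reads downstream, which is 32.2% (95% exact binomial interval 29.1% to 35.5%). The control with the highest value, the second of LNCaP95, had 9 of 294 reads, or 3.06% (1.41% to 5.73%). Each shRNA on its own gave the rise, with log2 fold changes of 3.78 and 4.46 for sh1 and sh2 in LNCaP, 4.08 and 4.41 for those in LNCaP95, and 2.24 and 3.50 for those in 22Rv1. The HNRNPDL downstream region holds 17 AATAAA hexamers on the transcribed strand, where the median 10 kb region holds 9, and 33 windows rich in A, where the median holds 13. Hexamers number 4 downstream of HNRNPA1 and HNRNPF, 5 for HNRNPA2B1 and HNRNPL, and 2 for HNRNPH1. HNRNPK has 7, HNRNPU 8, HNRNPD 9 and HNRNPC 11. Windows rich in A number 19 for HNRNPA1 and HNRNPK, 13 for HNRNPU, 9 for HNRNPF and 8 for HNRNPD. HNRNPA2B1 and HNRNPL have 6, HNRNPC 5 and HNRNPH1 4. Their part in the reads was not tested.

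**Figure D2:**
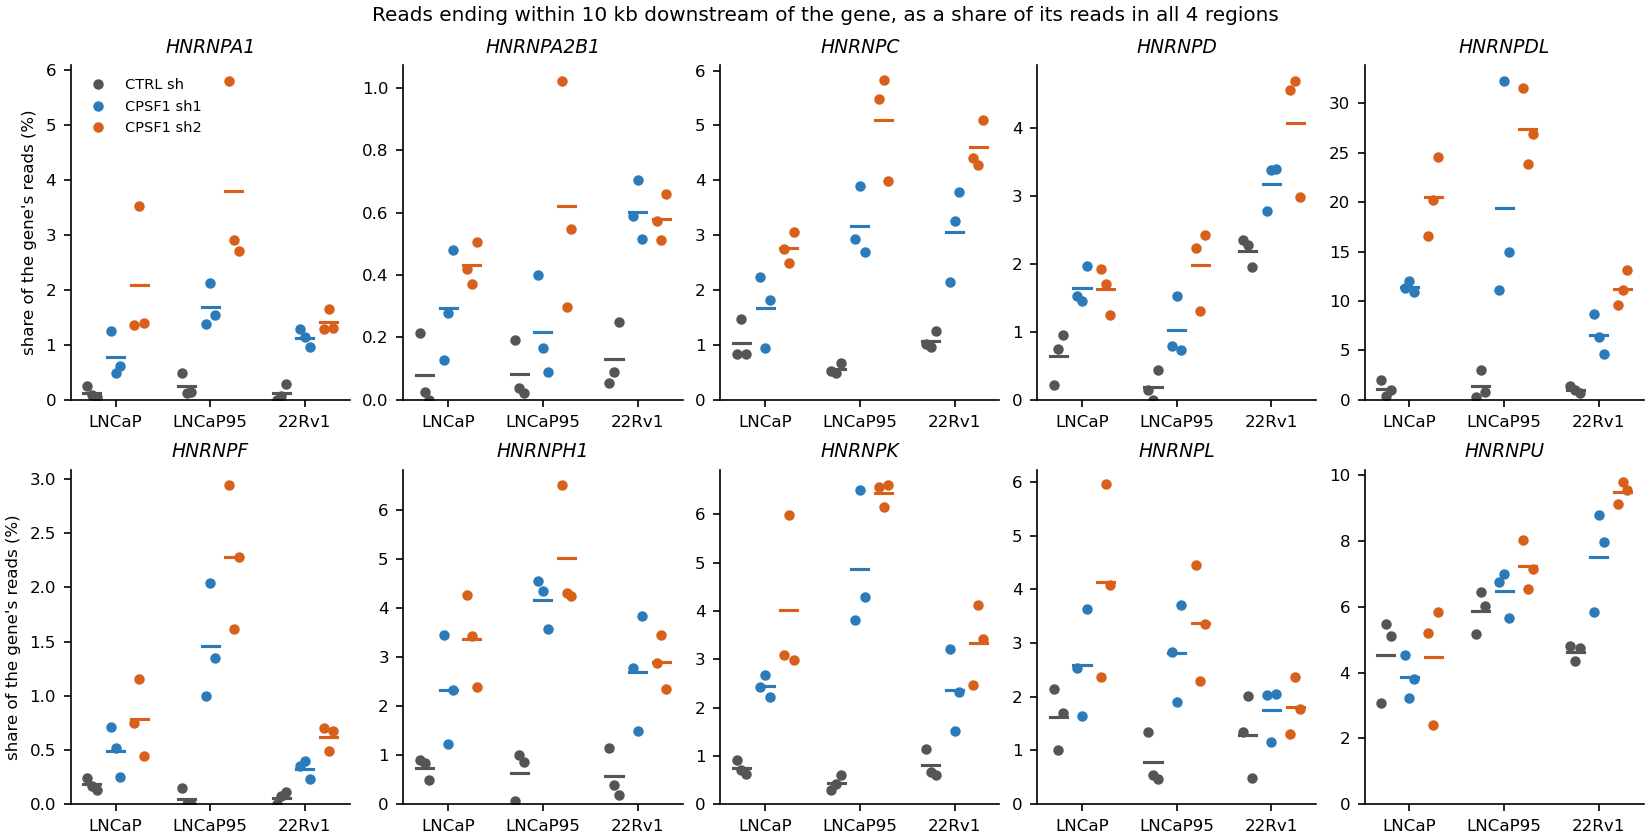
Share of each hnRNP gene's reads (y axis, percent, with its own scale in each of the 10 panels) that lay in the 10 kb downstream region, 1 point for each of the 27 libraries, grouped by line and shRNA. For HNRNPDL, HNRNPA1, HNRNPD, HNRNPF, HNRNPH1 and HNRNPK the knockdown points lie above the controls in each line, whereas the HNRNPU points of LNCaP overlap, with means of 4.55% in controls and 4.17% after knockdown.

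HNRNPA1 rose in all 3 lines although most of its transcripts still ended in the 3′ UTR. In LNCaP it had 27.1, 10.2 and 5.63 CPM downstream in controls, 101, 51.5 and 54.6 CPM with sh1, and 129, 203 and 107 CPM with sh2. In LNCaP95 the controls had 54.4, 12.7 and 14.5 CPM, the sh1 libraries 122, 140 and 109 CPM, and the sh2 libraries 230, 176 and 185 CPM. In 22Rv1 the controls had 0, 14.0 and 49.5 CPM, the sh1 libraries 108, 118 and 98.0 CPM, and the sh2 libraries 128, 162 and 133 CPM. No knockdown library overlapped a control of its line. The log2 fold changes were 2.89 ± 0.41 (adjusted p = 5.30e-09), 2.52 ± 0.40 (2.26e-07) and 2.27 ± 0.38 (1.35e-06). The downstream share of HNRNPA1 reads nevertheless stayed small, at 0.129% ± 0.110 in LNCaP controls and 1.44% ± 1.09 after knockdown (SD, n = 3 and 6). An annotated long non-coding RNA lies on the same strand in its downstream region, chr12:54681172-54691171, and its part in the rise was not tested.

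HNRNPA2B1, the nearest relative of HNRNPA1 in the group, gave a less even picture. In LNCaP its controls had 18.1, 2.56 and 0 CPM downstream, sh1 libraries 9.64, 25.7 and 32.4 CPM, and sh2 libraries 36.4, 16.6 and 30.2 CPM. In 22Rv1 controls had 5.88, 28.0 and 71.2 CPM, sh1 libraries 65.1, 110 and 78.4 CPM, and sh2 libraries 93.5, 82.7 and 94.4 CPM. Controls and knockdown libraries overlapped in both lines. The log2 fold changes were 1.92 ± 0.66 in LNCaP (adjusted p = 0.0331), 1.16 ± 0.58 in LNCaP95 (0.126) and 1.12 ± 0.36 in 22Rv1 (0.0290). The HNRNPA2B1 call in LNCaP was lost without control 2 (log2 1.52, adjusted p = 0.193), control 3 (1.36, 0.239), sh2 replicate 1 (0.0801) or sh1 replicate 3 (0.0576), and the call in 22Rv1 without control 1 (0.71, 0.224), control 2 (0.91, 0.175) or sh1 replicate 2 (0.0550).

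HNRNPK rose downstream in all 3 lines. In LNCaP its controls had 36.2, 35.8 and 31.0 CPM, the sh1 libraries 104, 137 and 94.4 CPM, and the sh2 libraries 133, 176 and 102 CPM. In LNCaP95 the controls had 25.4, 46.7 and 47.2 CPM, the sh1 libraries 281, 359 and 256 CPM, and the sh2 libraries 215, 379 and 428 CPM. In 22Rv1 the controls had 41.2, 42.0 and 40.2 CPM, the sh1 libraries 104, 69.5 and 82.6 CPM, and the sh2 libraries 105, 156 and 139 CPM. The groups were separate in each line, and the 22Rv1 controls were close together. The log2 fold changes of HNRNPK were 1.83 ± 0.32 (adjusted p = 2.81e-06), 3.01 ± 0.35 (1.07e-11) and 1.42 ± 0.34 (0.00164). In 22Rv1 sh1 taken alone gave 1.09 and missed the threshold (adjusted p = 0.125), whereas sh2 alone gave 1.79.

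The related G-run binding proteins HNRNPF and HNRNPH1, which also bind RNA near poly(A) sites, both had every knockdown library above every control in each line. HNRNPH1 had 30.1, 33.3 and 16.9 CPM in LNCaP controls, 96.4, 40.04 and 51.6 CPM with sh1, and 113, 56.5 and 43.6 CPM with sh2. In LNCaP95 it had 3.63, 51.0 and 39.98 CPM in controls, 148, 134 and 94.0 CPM with sh1, and 112, 118 and 122 CPM with sh2. In 22Rv1 it had 53.0, 28.0 and 12.4 CPM in controls, 104, 64.2 and 139 CPM with sh1, and 123, 149 and 95.9 CPM with sh2. Its log2 fold changes were 1.31 ± 0.39 (adjusted p = 0.0102), 1.96 ± 0.40 (6.20e-05) and 2.02 ± 0.38 (2.23e-05), and the LNCaP call was lost without control 3 (1.07, 0.104) or sh2 replicate 1 (1.09, 0.0702).

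HNRNPF had very few downstream reads in controls. In LNCaP95 it had 3, 0 and 0 reads in controls, 21, 45 and 30 reads with sh1, and 36, 41 and 48 reads with sh2. The control libraries with 0 downstream reads had 1703 and 1971 HNRNPF reads in all, which allows shares of up to 0.176% and 0.152%, whereas the knockdown libraries had 1.87% ± 0.700 (SD, n = 6). Summed, 221 knockdown reads stood against 3 control reads, a ratio per total reads after TMM scaling of 20.3 with a 95% exact counting interval of 6.85 to 99.1, and edgeR gave a log2 fold change of 4.24 ± 0.65 (adjusted p = 1.09e-07). In LNCaP and 22Rv1 the HNRNPF values were 1.57 ± 0.63 (0.0772) and 1.89 ± 0.86 (0.158) and missed the threshold. In 22Rv1 the 61 knockdown and 3 control reads gave a ratio of 3.89 (1.27 to 19.4). That interval covers counting error only and leaves out the spread between libraries, so it does not stand in for the edgeR test.

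HNRNPC, which packages nascent transcripts by binding U-runs, rose downstream in LNCaP95 and 22Rv1. In LNCaP95 it had 79.8, 72.2 and 98.1 CPM in controls, 197, 190 and 168 CPM with sh1, and 197, 296 and 200 CPM with sh2. In 22Rv1 it had 100.02, 135 and 152 CPM in controls, 177, 257 and 286 CPM with sh1, and 342, 331 and 364 CPM with sh2. The groups were separate in both of these lines and overlapped in LNCaP. The log2 fold changes of HNRNPC were 0.43 ± 0.28 in LNCaP (adjusted p = 0.341), 1.31 ± 0.31 in LNCaP95 (0.000436) and 1.16 ± 0.24 in 22Rv1 (0.000184). The long non-coding RNA LINC00641 is annotated on the same strand in this region, and its part in the reads was not tested.

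HNRNPD (AUF1), which binds AU-rich elements and directs mRNA decay, rose downstream in LNCaP and LNCaP95. In LNCaP it had 9.04, 35.8 and 47.9 CPM in controls, 57.8, 65.8 and 81.1 CPM with sh1, and 81.9, 56.5 and 41.9 CPM with sh2. In LNCaP95 it had 7.25, 0 and 21.8 CPM in controls, 32.8, 60.6 and 26.2 CPM with sh1, and 70.1, 48.1 and 99.0 CPM with sh2. In 22Rv1 it had 147, 173 and 145 CPM in controls, 149, 176 and 160 CPM with sh1, and 207, 243 and 145 CPM with sh2. The groups were separate in LNCaP95 and overlapped in the other lines. As shares of all HNRNPD reads, by contrast, the groups were separate in each line, at 0.220% to 0.947% in controls and 1.25% to 1.97% after knockdown in LNCaP, 0% to 0.434% and 0.738% to 2.42% for LNCaP95, and 1.95% to 2.35% and 2.77% to 4.69% for 22Rv1. Such shares are not corrected for the general downstream gain, and how many of all genes were separate by share was not counted. Relative to its 3′ UTR reads, downstream reads of HNRNPD changed by log2 0.59 in LNCaP (edgeR adjusted p = 0.395), 1.66 in LNCaP95 (0.0387) and 0.10 in 22Rv1 (0.874). The log2 fold changes of HNRNPD were 1.04 ± 0.38 (adjusted p = 0.0469), 2.45 ± 0.58 (0.000626) and 0.22 ± 0.24 (0.653), and the LNCaP call was lost when control 1 (0.63, 0.360), control 2, sh2 replicate 1 or any of the 3 sh1 replicates was left out. A pair of long non-coding RNAs is annotated on the same strand in its downstream region, and their part was not tested.

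HNRNPL, a CA-repeat binding splicing regulator, was called downstream only in LNCaP95, where controls had 61.6, 29.7 and 21.8 CPM, sh1 libraries 98.5, 66.9 and 131 CPM, and sh2 libraries 92.0, 81.9 and 103 CPM. All 6 LNCaP95 knockdown libraries were above the controls, with a log2 fold change of 1.32 ± 0.39 (adjusted p = 0.00587), which became 1.04 (0.0600) without control 3. In LNCaP and 22Rv1 the HNRNPL values were 0.45 ± 0.32 (0.397) and 0.05 ± 0.36 (0.951). ECH1 and a further protein-coding gene are annotated on the same strand in its downstream region, of which 8774 bases were counted, and their part in the reads was not tested.

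HNRNPU was the hnRNP gene whose canonical end lies inside its downstream interval, and it was the only one of the 10 called lower there, in LNCaP. In LNCaP it had 274, 432 and 425 CPM in controls, 270, 234 and 217 CPM with sh1, and 326, 140 and 280 CPM with sh2. The groups overlapped, and the log2 fold change of HNRNPU was -0.62 ± 0.21 (adjusted p = 0.0264). That call was lost without control 2 (-0.51, 0.191), control 3 (-0.53, 0.169) or sh2 replicate 2 (-0.51, 0.0651), and with libraries scaled by all reads the value was -0.11. In LNCaP95 it was -0.25 ± 0.23 (0.452), a sign that turned to 0.68 with that scaling. In 22Rv1 all 6 knockdown libraries, at 771 to 1034 CPM, were above the controls at 724 to 766 CPM, with a log2 fold change of 0.31 ± 0.18 (0.287).

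Counted in CPM over the 10 genes, all 6 knockdown libraries lay above all 3 controls for 5 genes in LNCaP, 8 in LNCaP95 and 7 in 22Rv1. Among all genes tested 10.1%, 17.3% and 11.2% did so. HNRNPA1, HNRNPDL, HNRNPF, HNRNPH1 and HNRNPK were separate in this way in each of the 3 lines, and for no hnRNP gene did all 6 knockdown libraries lie below the controls. The share of all genes separate in each of the 3 lines was not counted, and the share below the controls is not given here.

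**Figure D3:**
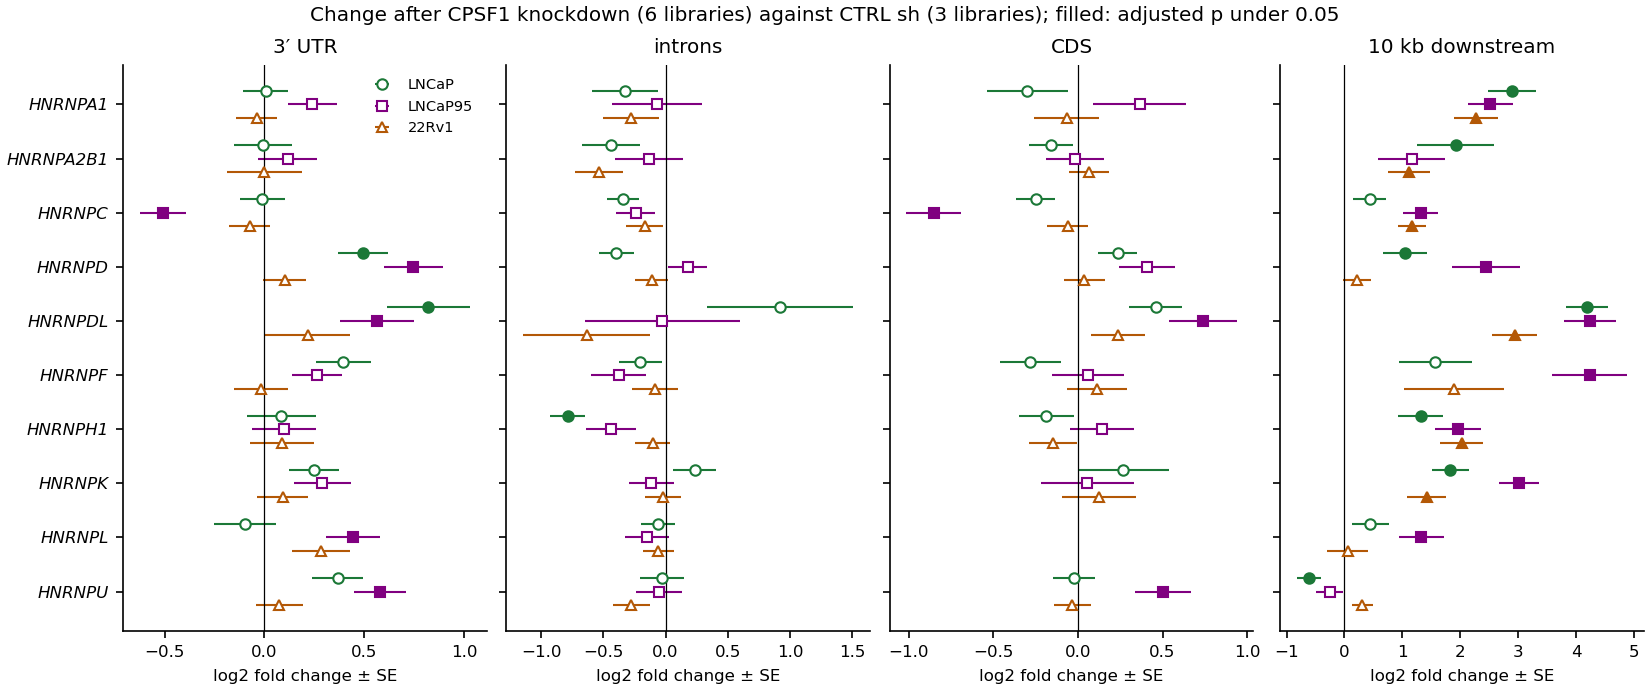
Log2 fold change after CPSF1 knockdown (x axis, points, with SE as bars) for the 10 hnRNP genes in each of the 4 regions and 3 lines, from 3 control and 6 knockdown libraries. Filled points passed an adjusted p of 0.05. The 10 kb values reach 4.24 for HNRNPDL and HNRNPF in LNCaP95, while the called 3′ UTR values lie between -0.51 and 0.82.

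The same comparison in the 3′ UTR gave smaller changes. In LNCaP 2 of 10 hnRNP genes rose, where 18.3% of all genes were called in either direction. In LNCaP95 4 rose and 1 fell, where 30.5% of all genes were called in either direction. In 22Rv1 edgeR called none of the 10, where 1.47% of all genes were called, none of the 10 had an unadjusted p under 0.05, and DESeq2 also called 0. The median log2 fold change of the hnRNP genes was 0.17, 0.28 and 0.08, against 0.02, 0.01 and -0.01 over all genes. The LNCaP count became 0 without control 1 and 4 without sh1 replicate 3 or sh2 replicate 2, and the LNCaP95 count 3 without control 1 or 3.

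HNRNPD and HNRNPDL, the paralog pair, were the 2 genes that rose in the 3′ UTR in LNCaP. HNRNPD had 144, 162 and 186 CPM in LNCaP controls, 216, 230 and 219 CPM with sh1, and 262, 243 and 218 CPM with sh2. In LNCaP95 it had 120, 154 and 133 CPM in controls, 196, 248 and 184 CPM with sh1, and 248, 232 and 259 CPM with sh2. The groups of HNRNPD were separate in both lines, with log2 fold changes of 0.49 ± 0.13 (adjusted p = 0.00986) and 0.75 ± 0.15 (0.000956), while 22Rv1 gave 0.10. HNRNPDL had 39.9, 55.0 and 47.8 CPM in LNCaP controls, 99.0, 102 and 68.8 CPM with sh1, and 114, 55.5 and 63.9 CPM with sh2, with a log2 fold change of 0.82 ± 0.21 (0.0100), and in LNCaP95 its value was 0.56 ± 0.19 (0.0287). Without LNCaP control 1 the HNRNPD and HNRNPDL calls in LNCaP were lost (0.41, 0.0795 and 0.71, 0.0753). The LNCaP95 call of HNRNPDL was lost without control 1 (adjusted p = 0.0856), control 2 (0.0835), control 3 (0.0716), sh2 replicate 2 (0.0607) or sh2 replicate 3 (0.0648).

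HNRNPC was the only hnRNP gene that fell in the 3′ UTR, and it did so in LNCaP95. It had 583, 556 and 589 CPM there in controls, 424, 421 and 420 CPM with sh1, and 359, 403 and 401 CPM with sh2. The groups were separate, with a log2 fold change of -0.51 ± 0.12 (adjusted p = 0.00277), against -0.01 in LNCaP and -0.07 in 22Rv1. In LNCaP95 the 3′ UTR reads of HNRNPU were 195, 219 and 205 CPM in controls, 293, 344 and 278 CPM with sh1, and 275, 323 and 335 CPM with sh2, a log2 rise of 0.58 ± 0.13 (0.00246). HNRNPL had 215, 242 and 237 CPM in LNCaP95 controls, 277, 359 and 292 CPM with sh1, and 288, 370 and 300 CPM with sh2, a rise of 0.44 ± 0.14 (0.0188) that was lost without control 1 (0.39, 0.104) or control 3 (0.46, 0.0557).

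In the introns, 1 of the 10 hnRNP genes was called in LNCaP, where 14.3% of all genes were called. HNRNPH1 fell there, with 95.7, 107 and 95.7 CPM in controls, 57.4, 70.5 and 56.8 CPM with sh1, and 46.6, 70.1 and 48.8 CPM with sh2. The groups were separate, the log2 fold change was -0.79 ± 0.14 (adjusted p = 0.000214), and the intronic share of HNRNPH1 reads went from 17.5% ± 0.189 to 9.38% ± 2.92 (SD, n = 3 and 6). The LNCaP count was 2 without control 1 and 3 without sh2 replicate 1. In LNCaP95, where 23.8% of all genes were called, and in 22Rv1, where 4.37% were, neither edgeR nor DESeq2 called any of the 10, and 1 of 10 had an unadjusted p under 0.05 in each line.

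In the CDS, 9 hnRNP genes had enough reads to test, HNRNPL being too low. In LNCaP95 2 rose and 1 fell, where 12.5% of all genes were called. HNRNPC fell, with 821, 696 and 770 CPM in LNCaP95 controls, 432, 309 and 498 CPM with sh1, and 408, 457 and 430 CPM with sh2, which gave separate groups and a log2 fold change of -0.85 ± 0.16 (adjusted p = 0.000909). Of the HNRNPC coding bases, 42.5% were also counted as 3′ UTR, so its falls in the CDS and the 3′ UTR may share reads. HNRNPDL rose in LNCaP95 by 0.74 ± 0.20 (0.0147), from 90.3, 71.2 and 112 CPM in controls to between 128 and 190 CPM, a call lost without control 1 (0.0696) or control 2 (0.119). HNRNPU rose by 0.50 ± 0.16 (0.0439), from 1267, 1236 and 1171 CPM to between 1501 and 1955 CPM, and that call was lost without any of the 3 controls or any of the 3 sh2 libraries of LNCaP95 (adjusted p between 0.0720 and 0.164). In LNCaP, where 7.10% of all genes were called, edgeR called 0 of 9 with 2 at an unadjusted p under 0.05 and DESeq2 called 1. In 22Rv1, where 1.01% were called, edgeR called 0 with 0 at an unadjusted p under 0.05 and DESeq2 called 0.

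Reads summed over the 4 regions are a measure nearer to the total output of polyadenylated transcripts. For HNRNPC, HNRNPD, HNRNPH1, HNRNPK and HNRNPL, however, reads on bases counted as both CDS and 3′ UTR enter the sum more than once. The sum rose for 4 of 10 hnRNP genes in LNCaP, where 27.5% of all genes were called in either direction. These were HNRNPD (log2 0.29, adjusted p = 0.0390), HNRNPDL (0.92, 0.000143), HNRNPF (0.39, 0.0400) and HNRNPK (0.33, 0.0334). Only HNRNPDL kept its LNCaP call without control 1, where HNRNPD (0.22, 0.213), HNRNPF (0.26, 0.255) and HNRNPK (0.23, 0.214) lost theirs, and 1 or 2 calls also remained without control 2 or 3, sh1 replicate 1 or 2, or sh2 replicate 1. In LNCaP95, where 34.3% were called, HNRNPD (0.48, 0.00876), HNRNPDL (0.92, 0.00109) and HNRNPU (0.44, 0.0165) rose and HNRNPC fell by 0.61 (0.00109), of which HNRNPD was lost without control 1 (0.0649) and HNRNPU without control 1 (0.0701) or 3 (0.0642). In 22Rv1, where 7.57% were called, edgeR called none of the 10, with 0 at an unadjusted p under 0.05, and DESeq2 called 0.

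To ask whether the downstream rise went beyond the change of the same gene's 3′ UTR, both regions were put in 1 model and the change in their ratio was tested. In LNCaP the ratio rose for 4 of 10 hnRNP genes and fell for 1, against 8.39% of all genes called higher and 1.95% lower. In LNCaP95 it rose for 7 and fell for 1, against 21.2% and 6.82%, and in 22Rv1 it rose for 6, against 6.65% called higher. HNRNPA1, HNRNPDL and HNRNPK rose in all 3 lines, with log2 changes in the ratio of 2.84, 2.32 and 2.38 for HNRNPA1, 3.38, 3.61 and 2.69 for HNRNPDL, and 1.57, 2.69 and 1.32 for HNRNPK. How many of all genes had a higher ratio in all 3 lines was not counted. HNRNPC, whose 3′ UTR reads fell in LNCaP95 while its downstream reads rose, had a ratio change of 1.82 there (adjusted p = 9.82e-05) and 1.21 in 22Rv1 (0.0130). HNRNPF rose by 4.05 in LNCaP95 (2.02e-05), and HNRNPH1 by 1.94 in both LNCaP95 (0.00127) and 22Rv1 (0.00618).

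Several calls on the ratio were lost when 1 library was left out. HNRNPU had a lower ratio in LNCaP (-0.99, adjusted p = 0.0238) and LNCaP95 (-0.83, 0.0270), the latter turning to 0.19 with scaling by all reads, and the calls were lost without LNCaP control 2 (0.119) or 3 (0.139) and without LNCaP95 control 2 (0.0791) or 3 (0.0590) or sh2 replicate 2 (0.0634) or 3 (0.0544). HNRNPA2B1 in LNCaP (1.97, 0.0472) was lost without control 2 (0.238) or 3 (0.264), sh1 replicate 2 (0.0547) or 3 (0.0778), or sh2 replicate 1 (0.0809) or 3 (0.0662), and in 22Rv1 (1.25, 0.0495) without any library but control 3 (adjusted p between 0.0503 and 0.255). HNRNPD in LNCaP95 (1.66, 0.0387) was lost without control 1 (0.112) or 2 (0.217) or sh2 replicate 1 (0.0602) or 3 (0.0763). In 22Rv1 HNRNPC was lost without control 1 (0.0532) or 2 (0.0599), HNRNPH1 without control 3 (0.136), and HNRNPK (0.0256) without control 2 (0.0842) or 3 (0.150) or sh2 replicate 2 (0.0574) or 3 (0.0543).

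The ratio of intronic to 3′ UTR reads fell for HNRNPD (-0.88 ± 0.20, adjusted p = 0.00946) and HNRNPH1 (-0.86 ± 0.23, 0.0328) in LNCaP, where 3.69% of all genes were called in either direction. The HNRNPD call was lost without control 2 (-0.75, 0.0974), and that of HNRNPH1 without control 1 (0.173), 2 (0.0674) or 3 (0.125), sh1 replicate 1 (0.0734) or 2 (0.0543), or sh2 replicate 1 (0.0704). None of the 10 was called by edgeR in LNCaP95, where 14.1% of all genes were called, with 4 at an unadjusted p under 0.05, or in 22Rv1, where 0.422% were, with 0. For the ratio of CDS to 3′ UTR reads edgeR called 0 of 9 in each line, with 2, 1 and 0 at an unadjusted p under 0.05, where 0.132%, 0.784% and 0.0218% of all genes were called.

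The other hnRNP-family genes, a list of 17 that includes PTBP1, PCBP1 and RBMX, were counted downstream in the same fits, and the difference between the lists was not tested. In LNCaP 0 of the 16 that could be tested were called, in LNCaP95 2 rose and 1 fell, and in 22Rv1 4 rose, where the shares of all genes called were the 9.52% higher and 5.20% lower, 17.6% and 10.1%, and 7.26% and 2.73% given above. The poly(C)-binding protein PCBP1 (2.18, adjusted p = 5.97e-06) and the polypyrimidine tract-binding protein PTBP1 (2.68, 0.0263) rose in LNCaP95, where HNRNPUL1 fell by 1.06 (0.0211). In 22Rv1 RBMX rose by 0.86 (0.00676) and HNRNPH3 by 1.25 (0.0227). Their median log2 fold changes were -0.06, 0.39 and 0.38 in LNCaP, LNCaP95 and 22Rv1, against 1.44, 2.20 and 1.29 for the 10 genes described above.

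**Figure D4:**
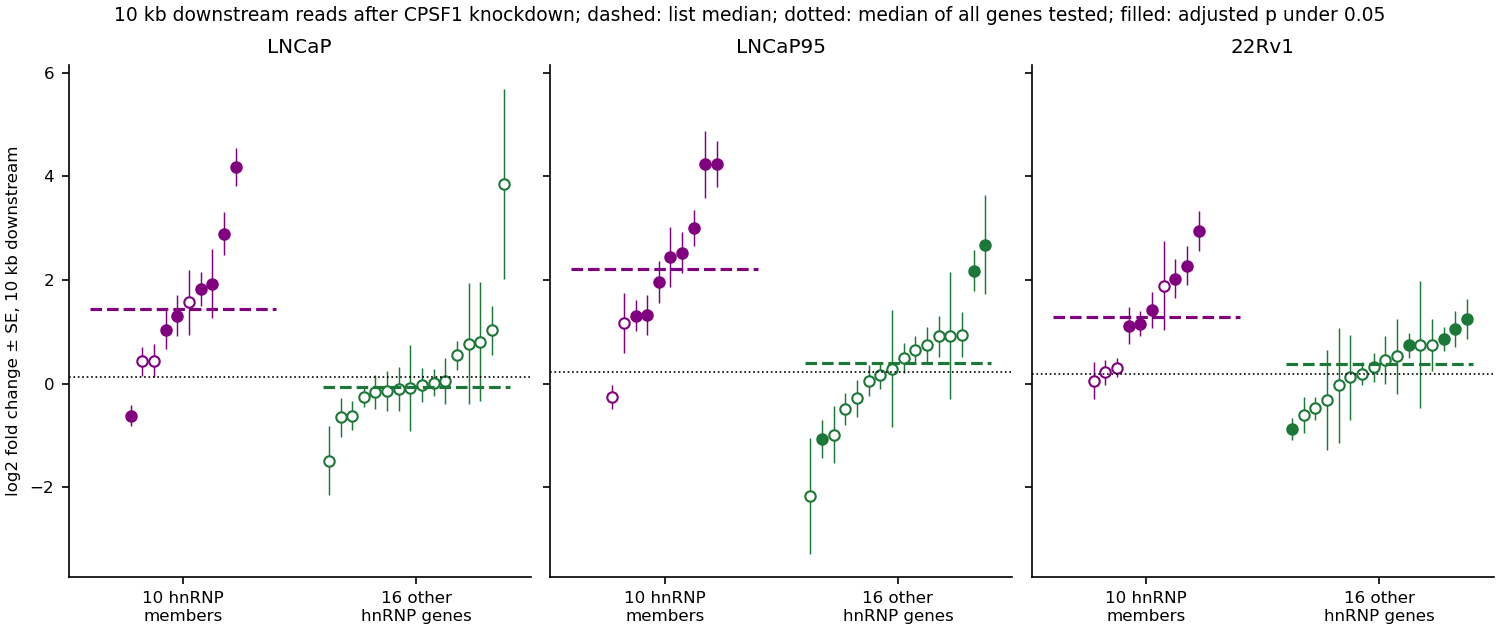
Log2 fold change 10 kb downstream after CPSF1 knockdown (y axis, with SE as bars and filled points past an adjusted p of 0.05), 1 point for each gene in rising order, for the 10 hnRNP genes and the 16 other hnRNP-family genes tested, in each line. Dashed lines mark each list's median, which is 1.44, 2.20 and 1.29 for the 10 genes and -0.06, 0.39 and 0.38 for the others, and the dotted line marks the median over all genes.

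The control libraries of the 3 lines were then compared with each other, in a model of all 27 libraries. In the 3′ UTR, 22Rv1 had more reads for 6 of 10 hnRNP genes than LNCaP and for 7 than LNCaP95, where 25.0% and 29.2% of all genes were called higher. LNCaP95 had fewer reads than LNCaP for HNRNPA1 and HNRNPD and more for none, where 21.6% of all genes were called lower and 20.3% higher. On 1 scale for all libraries, HNRNPU had 188, 198 and 183 CPM in LNCaP, 180, 202 and 188 CPM in LNCaP95, and 322, 418 and 417 CPM in 22Rv1. The 22Rv1 values of HNRNPU were above all others, with log2 differences of 1.03 ± 0.13 from LNCaP (adjusted p = 8.22e-08) and 1.03 ± 0.13 from LNCaP95 (5.73e-08).

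For HNRNPA1 the control libraries of LNCaP95 stood apart from those of its parent line. It had 1015, 1035 and 985 CPM in the 3′ UTR in LNCaP controls, 557, 502 and 589 CPM in LNCaP95, and 1079, 1208 and 1154 CPM in 22Rv1. LNCaP95 lay below both other lines, by 0.88 ± 0.12 on the log2 scale against LNCaP (adjusted p = 3.26e-07) and with 22Rv1 1.06 ± 0.12 higher (3.42e-09), while 22Rv1 and LNCaP were not called different. HNRNPD was ordered LNCaP95, LNCaP, 22Rv1, with 125 ± 15.9, 178 ± 22.2 and 284.5 ± 4.98 CPM (SD, n = 3), and every step of that order was called, at 0.51 ± 0.14 (0.00308) and 0.68 ± 0.14 (0.000108). HNRNPC was at 453 ± 6.58, 529.9 ± 15.0 and 682 ± 47.1 CPM in LNCaP, LNCaP95 and 22Rv1, of which the first pair was not called different.

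HNRNPDL, at 51.6 ± 7.94, 44.4 ± 1.95 and 105.5 ± 25.0 CPM in LNCaP, LNCaP95 and 22Rv1, was 1.04 ± 0.26 (adjusted p = 0.00130) and 1.27 ± 0.26 (0.000120) higher in 22Rv1 than in the other lines on the log2 scale. HNRNPA2B1 was at 766 ± 95.9, 889 ± 96.6 and 1502 ± 506 CPM, with 22Rv1 higher by 0.97 ± 0.20 (0.000162) and 0.76 ± 0.20 (0.00186). HNRNPH1 was higher in 22Rv1 by 0.68 ± 0.21 (0.00627) and 0.71 ± 0.21 (0.00359). HNRNPF, HNRNPK and HNRNPL were not called different between any pair of lines. These 3′ UTR calls remained when any 1 of the 27 libraries was left out, and that of HNRNPC between 22Rv1 and LNCaP95 (0.36, 0.00612) was lost with scaling by all reads.

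**Figure D5:**
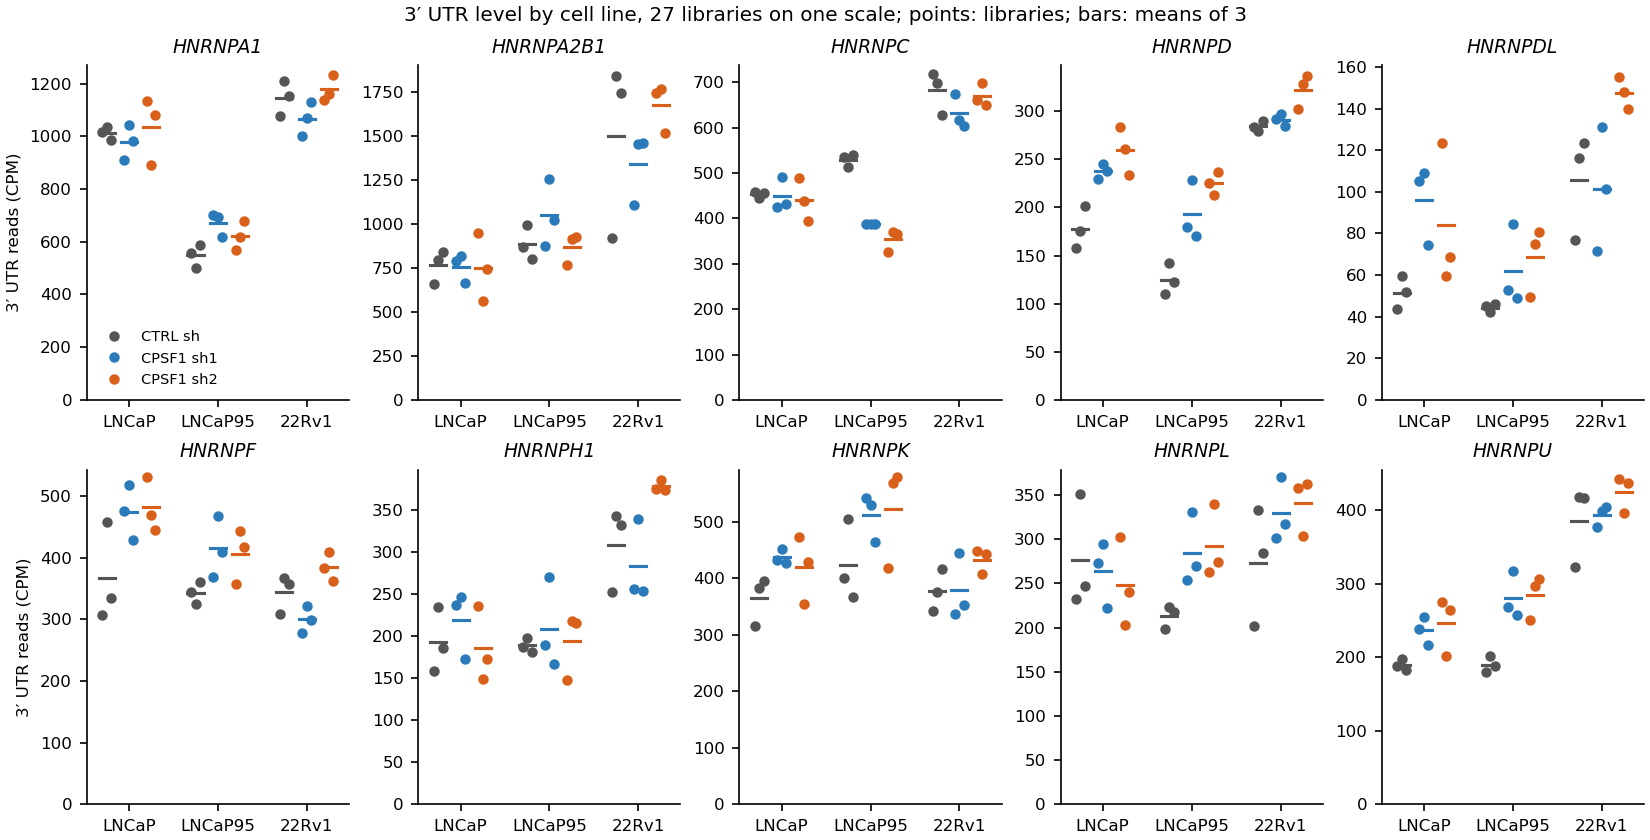
3′ UTR reads of the 10 hnRNP genes (y axis, CPM on 1 scale for all 27 libraries, with its own scale in each panel), 1 point a library, by line and shRNA. In controls HNRNPA1 is at 549 CPM on average in LNCaP95 against 1012 CPM in LNCaP, and HNRNPU and HNRNPD are highest in 22Rv1.

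In the CDS the differences between control lines pointed the same way for several of these genes. LNCaP95 was below LNCaP for 5 of 9 hnRNP genes, and 22Rv1 was above LNCaP for 3 and above LNCaP95 for 6. Of all genes, 23.8%, 29.1% and 37.1% were called in these comparisons, counting both directions together. HNRNPA1 had 71.7 ± 7.92, 25.1 ± 3.73 and 78.1 ± 16.2 CPM in LNCaP, LNCaP95 and 22Rv1 controls (SD, n = 3), with a log2 difference of -1.52 ± 0.26 between LNCaP95 and LNCaP (adjusted p = 2.31e-05). HNRNPU was 1.06 ± 0.15 higher in 22Rv1 than in LNCaP95 (2.25e-07) and 0.62 ± 0.15 higher than in LNCaP (0.00122). The lower CDS values of HNRNPF (-0.57, 0.0349) and HNRNPU (-0.44, 0.0241) in LNCaP95 depended on single libraries. HNRNPF was lost in 10 of the 27 fits that left out 1 library, with the smallest value without LNCaP95 control 1 (-0.47, 0.155), and HNRNPU in 4, those without LNCaP control 1 (0.0750) or 3 (0.0504) or LNCaP95 control 2 (0.0592) or 3 (-0.39, 0.0955). The 5 calls became 3 without LNCaP control 3 or LNCaP95 control 2.

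In the introns the lines differed in another direction for some genes. LNCaP95 was below LNCaP for HNRNPA1, HNRNPD and HNRNPH1, where 25.4% of all genes were called in either direction. 22Rv1 was below LNCaP for HNRNPC, HNRNPH1 and HNRNPK, where 32.0% were called in either direction. Between 22Rv1 and LNCaP95 5 genes were higher and 2 lower, where 39.2% were called in either direction. HNRNPH1 had 118 ± 7.32 CPM of intronic reads in LNCaP controls, 54.8 ± 11.3 in LNCaP95 and 55.9 ± 8.47 in 22Rv1 (SD, n = 3), so that LNCaP stood above both, by log2 differences of 1.10 (adjusted p = 7.25e-06) and 1.09 (1.04e-05). HNRNPC had 137 ± 5.82, 118 ± 17.8 and 72.3 ± 9.52 CPM, which is lower in 22Rv1 while its 3′ UTR reads were higher there. Of the calls between 22Rv1 and LNCaP95, those of HNRNPA2B1, HNRNPD, HNRNPL and HNRNPU were lost together without 22Rv1 control 2 (adjusted p between 0.0635 and 0.0929), which left 3 calls. Without LNCaP95 control 1, 2 or 3 there were 4. HNRNPK was lost there without LNCaP95 control 3 (0.0540), its call between 22Rv1 and LNCaP without LNCaP control 1 (0.0905), and the HNRNPD call between LNCaP95 and LNCaP without LNCaP control 2 (0.0663).

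In the 10 kb downstream region of control cells, HNRNPD was the gene with the clearest line difference. It had 11.2, 44.9 and 60.5 CPM in LNCaP, 6.13, 0 and 18.5 CPM in LNCaP95, and 131, 146 and 129 CPM in 22Rv1. The 22Rv1 controls of HNRNPD were above all others, with log2 differences of 1.77 ± 0.42 from LNCaP (adjusted p = 0.000813) and 3.92 ± 0.52 from LNCaP95 (9.37e-10). Of all genes tested, 13.5% and 18.3% were called in either direction in these comparisons. Without LNCaP95 control 1 or 22Rv1 control 1 a further hnRNP gene was called between 22Rv1 and LNCaP95. HNRNPA2B1 was the other hnRNP gene called, between 22Rv1 and LNCaP (2.02, 0.0442), a call lost without LNCaP control 2 (0.197) or 3 (0.225) or 22Rv1 control 3 (0.89, 0.621). LNCaP95 was below LNCaP for HNRNPD alone (-2.14 ± 0.61, 0.0127), where 7.46% of all genes were called in either direction. This HNRNPD call was lost without LNCaP control 2 (0.0567) or 3 (0.143) or LNCaP95 control 1 (0.0694) or 2 (0.0966).

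Whether the change after CPSF1 knockdown differed between lines was tested as an interaction in the same model. In the 3′ UTR 1 hnRNP gene, HNRNPC, changed differently in LNCaP95 and LNCaP, none in 22Rv1 and LNCaP, and HNRNPC, HNRNPD and HNRNPU in 22Rv1 and LNCaP95, where 9.58%, 5.11% and 10.7% of all genes were called. For HNRNPC the fall was greater in LNCaP95 than in LNCaP by 0.49 on the log2 scale (adjusted p = 0.0202). This HNRNPC difference remained in each of the 27 fits that left out 1 library, whereas the 3 calls between 22Rv1 and LNCaP95 became 0 without LNCaP95 control 1 and 1 without LNCaP95 control 3 or 22Rv1 control 2 or 3. In the introns 1, 0 and 0 of 10 were called against 8.10%, 3.77% and 9.10%, the call being HNRNPD (0.61, 0.0488), which was lost in 19 of the 27 such fits, and in the CDS 0, 0 and 1 of 9 against 3.84%, 0.532% and 4.77%. Where edgeR called 0, the number at an unadjusted p under 0.05 was 2 for the 3′ UTR between 22Rv1 and LNCaP, 1 and 0 for the introns, and 3 and 0 for the CDS.

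In the 10 kb downstream region the interaction was called for 0 hnRNP genes between LNCaP95 and LNCaP (4 at an unadjusted p under 0.05), 0 between 22Rv1 and LNCaP (1) and 2 between 22Rv1 and LNCaP95, where 2.48%, 1.00% and 4.15% of all genes were called by edgeR. HNRNPD rose less in 22Rv1 than in LNCaP95 by 2.23 on the log2 scale (adjusted p = 0.0168), lost without LNCaP95 control 1 (-2.02, 0.0835) or 2 (-1.73, 0.0989). HNRNPK rose less in 22Rv1 than in LNCaP95 by 1.59 (0.0442), a call lost in 12 of the 27 fits that left out 1 library. Without LNCaP95 control 1 neither call remained. For HNRNPA1, HNRNPDL and HNRNPH1, which rose in all 3 lines, no difference between lines passed the threshold.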

How the data were processed

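The 10 hnRNP genes and the list of 17 other family genes were chosen with earlier results of these data known. The text names all 10 genes, at most 3 of the other family genes in a comparison (those with the lowest adjusted p), CPSF1 as the check of the knockdown, and same-strand neighbours where a result touches them. One result of the other family genes is not reported here. Deposited were 4 tables of raw read counts a gene in 27 PAC-seq libraries. The authors trimmed poly(A) tails with DPAC, aligned reads to GRCh37 and assigned each read by its 3′-most base and strand to Ensembl regions: the 3′ UTR extended by 300 bases, the CDS, the introns (the gene without CDS and 3′ UTR, so with 5′ UTR exons) and 10 kb downstream without same-strand exons. HISAT2 2.1.0 and Subread 2.0.3 are named in the submitters' processing notes. How reads with several alignments were treated is not given in the sources used here, and several hnRNP genes have processed pseudogenes, so their counts are uncertain to that extent.

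Counts were tested with edgeR 4.0.16 in R 4.3.3 (quasi-likelihood test, TMM factors of each table, mean CPM above 2, Benjamini-Hochberg over all genes tested, threshold 0.05). Each line was fitted on 3 control and 6 knockdown libraries. Ratios to the 3′ UTR were tested as a region-by-knockdown term with 2 columns a library, and lines were compared in a fit of all 27 libraries. SE is the absolute log2 fold change divided by the square root of F. The scripts were tested on simulated counts. Alternatives were DESeq2 1.42.0, other scalings and filters, a replicate block, each shRNA alone and leaving out each library. For the comparisons between lines, the fits without each library were added after the data had been seen. Replicates were averaged within a group of 3 or, where n = 6, over the sh1 and sh2 libraries of a line. An SD with n = 6 therefore also holds the difference between the shRNAs. No pair of replicates agreed within sampling noise. Intervals of shares and read ratios are exact, at 95%, and cover counting error only. A count of 0 was given the limit of 3 counts. Sequences come from the GRCh37 genome and its annotation. AATAAA and ATTAAA were searched on the transcribed strand alone.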

Additional observations from a re-analysis of the deposited data

Results flagged for a closer look

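Among 117 groups of 6 knockdown libraries with at least 30 reads in sum, 4 held 1 library far from the other 5, where chance gives about 1 in 20. In LNCaP95 the first sh2 replicate had the lowest HNRNPC 3′ UTR value, at 359 CPM, with the others between 401 and 424, and the second sh2 replicate had the highest HNRNPC value 10 kb downstream, at 296 CPM, with the others between 168 and 200. In LNCaP the second sh2 replicate had 132 CPM of HNRNPU intronic reads, with the others between 58.3 and 76.7, and the third had 27.4 CPM of HNRNPA1 CDS reads, with the others between 59.5 and 72.6.

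A difference between lines in the change after CPSF1 knockdown, tested as an interaction with edgeR, was called 8 times. HNRNPC changed differently in the 3′ UTR between LNCaP95 and LNCaP (-0.49, adjusted p = 0.0202) and between 22Rv1 and LNCaP95 (0.45, 0.0318), and in the CDS between 22Rv1 and LNCaP95 (0.79, 0.00764). Of these, the second was lost without LNCaP95 control 1 or 3 or 22Rv1 control 2 or 3. The CDS and 3′ UTR calls of HNRNPC may share reads, since 42.5% of its coding bases were counted in both. HNRNPD differed between 22Rv1 and LNCaP95 in the 3′ UTR (-0.63, 0.0125), a call lost without LNCaP95 control 1 (-0.55, 0.0610), and 10 kb downstream (-2.23, 0.0168), lost without LNCaP95 control 1 or 2. In the introns HNRNPD differed between LNCaP95 and LNCaP (0.61, 0.0488), lost in 19 of 27 fits without 1 library. HNRNPU differed in the 3′ UTR between 22Rv1 and LNCaP95 (-0.49, 0.0442), lost in 13 of 27, and HNRNPK 10 kb downstream (-1.59, 0.0442), lost in 12 of 27.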

How the results depend on the processing

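The counts of hnRNP genes called 10 kb downstream stayed within 1.5 times under each alternative scaling, filter, test, block and single shRNA, and moved with single libraries. HNRNPU in LNCaP95 changed sign when libraries were scaled by the reads of all 4 tables, to 0.68 downstream and 0.19 in the ratio to the 3′ UTR, and the cause was not tested. With that scaling the counts became 4 for introns in LNCaP (1 as reported), 3 for the 3′ UTR in LNCaP95 (5), 3 for controls 10 kb downstream between 22Rv1 and LNCaP95 (1), and, for differences between lines in the knockdown change, 1 for the 3′ UTR (3) and 0 for the CDS (1) between 22Rv1 and LNCaP95, 0 for introns between LNCaP95 and LNCaP (1) and 1 for introns between 22Rv1 and LNCaP (0). Without TMM factors the 3′ UTR gave 4 in LNCaP (2) and 8 in LNCaP95 (5). DESeq2 gave 4 for the 3′ UTR (2) and 1 for the CDS (0) in LNCaP. RLE factors gave 0 for the intronic difference (1) and 1 for the CDS difference (0) between LNCaP95 and LNCaP. Without a filter LNCaP gave 2 for introns (1) and 1 for all 4 regions (4). With sh1 alone there were 2 for introns in LNCaP (1), 2 for the 3′ UTR (5), 1 for the CDS (3) and 2 for all regions (4) in LNCaP95, and 3 for the downstream ratio in 22Rv1 (6). With sh2 alone LNCaP gave 1 for the 3′ UTR (2), 1 for the CDS (0), 1 for all regions (4) and 0 for the intronic ratio (2).

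Replicate numbers were not treated as pairs, since same-numbered libraries did not deviate together in every case (correlations between -0.26 and 0.39 over all tables and lines). In 22Rv1 6, 6 and 7 of 9 libraries correlated best with their own number in introns, in the CDS and downstream, and elsewhere 1 to 4 did, a hint from the data and not from the design. With the replicate number as a block the counts became 2 for all regions (4) and 1 for the intronic ratio (2) in LNCaP, 1 for controls 10 kb downstream between 22Rv1 and LNCaP (2), and, for differences in the knockdown change, 1 for the 3′ UTR (3) and 1 for 10 kb downstream (2) between 22Rv1 and LNCaP95 and 0 for introns between LNCaP95 and LNCaP (1). All other counts stayed within 1.5 times under the block.

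Leaving out 1 library in turn, the counts in LNCaP, LNCaP95 and 22Rv1 ranged over 0 to 4, 3 to 5 and 0 to 0 in the 3′ UTR, 1 to 3, 0 to 0 and 0 to 0 in introns, 0 to 0, 1 to 3 and 0 to 0 in the CDS, 4 to 8, 7 to 9 and 5 to 6 downstream, and 1 to 4, 2 to 5 and 0 to 0 over all regions. For ratios they ranged over 0 to 2, 0 to 1 and 0 to 0 (introns), 0 throughout (CDS), and 3 to 5, 6 to 9 and 3 to 5 (downstream). For controls of LNCaP95 against LNCaP, 22Rv1 against LNCaP and 22Rv1 against LNCaP95 they ranged over 2 to 3, 6 to 6 and 7 to 8 in the 3′ UTR, 2 to 3, 2 to 4 and 3 to 7 in introns, 3 to 5, 3 to 3 and 6 to 6 in the CDS, and 0 to 1, 1 to 2 and 1 to 2 downstream. For differences in the knockdown change they ranged over 1 to 1, 0 to 0 and 0 to 3 in the 3′ UTR, 0 to 1, 0 to 1 and 0 to 0 in introns, 0 to 1, 0 to 0 and 1 to 1 in the CDS, and 0 to 1, 0 to 0 and 0 to 2 downstream. Downstream reads of single genes in controls were often under 10 a library, which limits the precision of each fold.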
